A study of Mus musculus with 6 samples.

Results

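The 10 genes described here are Vim, Actb, Actg1, Tmsb10, Tmsb4x, Myh9, Flna, Tpm4, Capg and Lgals1. They encode vimentin, an intermediate filament protein, parts of the actin cytoskeleton and, in the case of Lgals1, the lectin galectin-1. They were taken by gene symbol from the probe annotation of the array, and all 10 were found among the 22180 genes measured. They were read in livers of male C57BL/6J mice on a high fat diet, 1 array per mouse. The Con group (3 mice) carried the floxed gene, labelled Slug f/f. The HKO group (3 mice), labelled SlugHKO, came from crossing Slug f/f mice with albumin-CreERT2, a tamoxifen-dependent Cre recombinase under the albumin promoter, which is active in hepatocytes. Slug (symbol Snai2) is a zinc finger repressor of the Snail family, best known for its part in epithelial to mesenchymal transition. Both groups were littermates; from the age of 8 weeks they ate a diet in which fat supplied 60% of the calories, for 11 weeks. The labels do not say if the Con mice had the Cre, or how tamoxifen was given.

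Actin filaments grow from a pool of monomers that small proteins such as the thymosins hold back, are bundled and tied to membranes by crosslinkers, and are pulled by non-muscle myosin. Vimentin forms the intermediate filaments of mesenchymal, endothelial and blood cells, while hepatocytes build theirs from keratins 8 and 18. In liver, most of these genes are expressed more strongly in stellate cells, macrophages and endothelium than in hepatocytes, and they go up as stellate cells become myofibroblasts. In a piece of whole liver, fewer cells of a type and less RNA per cell cannot be told apart.

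Values are log2 array values made by the authors with RMA, so a difference of 1 is a doubling and is relative to the rest of the array. The correlation between arrays over all genes was 0.989 to 0.992 within groups and 0.986 to 0.988 across them. The hepatocyte genes Alb, Ttr and Cyp2e1 stood between 11.57 and 12.48 on all 6 arrays, as fits the labelled tissue. The targeted gene, Snai2, fell. The Con mean was 7.61 ± 0.19 (SD, n = 3) and the HKO mean 5.18 ± 0.54 (SD, n = 3), with a limma adjusted p of 0.0145. Leaving out 1 array raised that to 0.0758 (Con replicate 1), 0.0927 (Con replicate 2) or 0.0621 (HKO replicate 2). Over all genes, 45 (0.203%) passed an adjusted p of 0.05 in limma, a linear model that shares variance between genes. Leaving out Con replicate 1 gave 5 genes and Con replicate 2 gave 4; leaving out HKO replicates 1, 2 and 3 gave 25, 6 and 16.

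Livers of HKO mice had lower values of Lgals1, Vim, Flna, Tpm4, Capg, Tmsb4x and Myh9 on every array than any Con liver, while Actb, Actg1 and Tmsb10 overlapped between the groups. Of the 10 genes, 7 thus lay apart and below, against 10.1% of all genes, and 0 lay apart and above, against 8.05%. Among genes with a mean log2 value of at least 5, 6 of the 8 that belong to the group lay apart and below, against 17.1% of all such genes, and 5 of the 8 were lower at an unadjusted p under 0.05, against 9.56%. None of the 10 passed adjusted p 0.05 in limma over all genes (0.113% of all genes passed as lower and 0.0902% as higher); at an unadjusted p under 0.05, 6 were lower, against 6.56% of all genes, and 0 were higher, against 5.31%. The median log2 change of the 10 genes was -0.40, beside -0.01 over all genes. The mean was lower in HKO for 9 of them, against 51.8% of all genes. The 10 genes were chosen with earlier results of these data known, so the counts beside these shares are a description and no test.

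**Figure D1:**
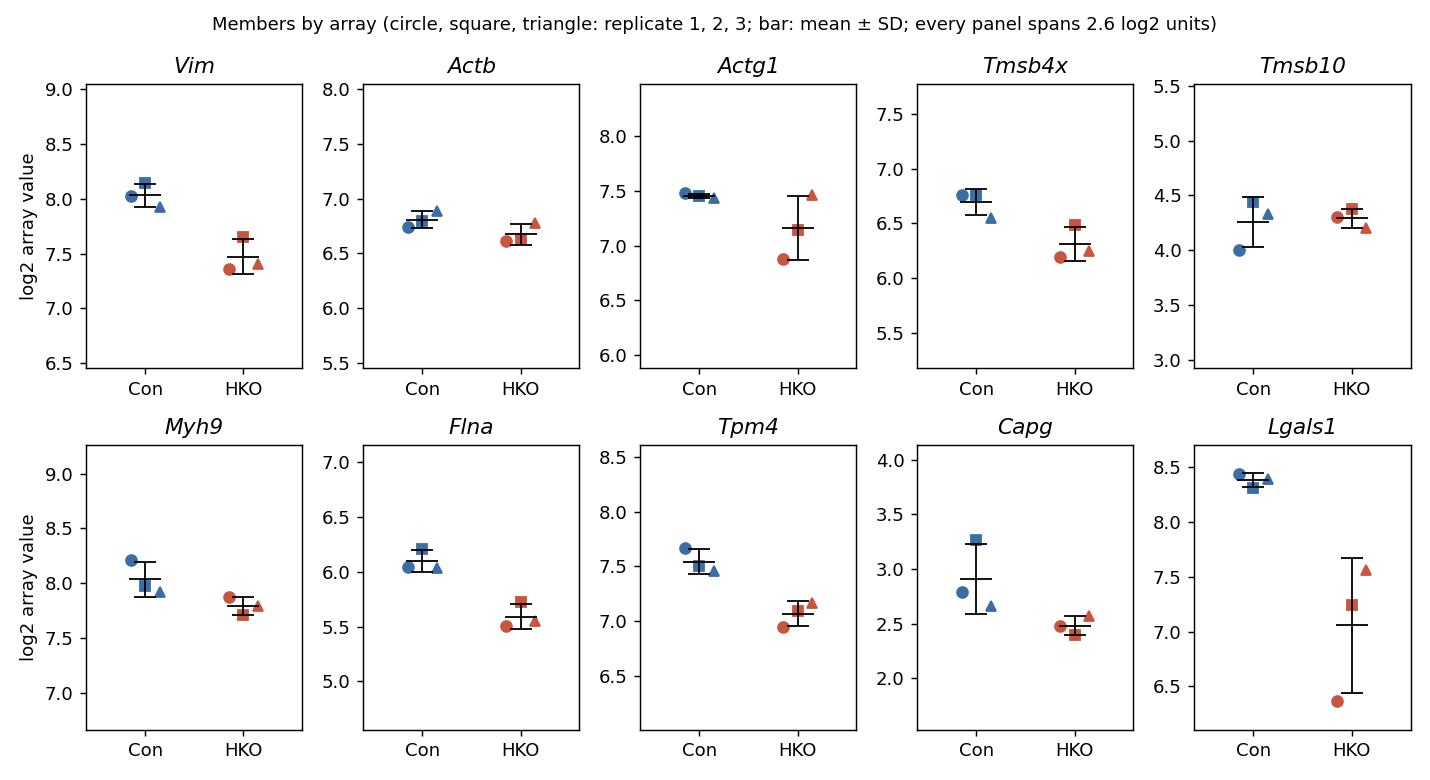
Log2 array values of the 10 genes in Con (blue) and HKO (red) livers, 1 point per mouse with the mean and SD (n = 3). The groups do not overlap in 7 panels, and Lgals1 has both the lowest HKO point relative to its Con points and the widest HKO spread.

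**Figure D2:**
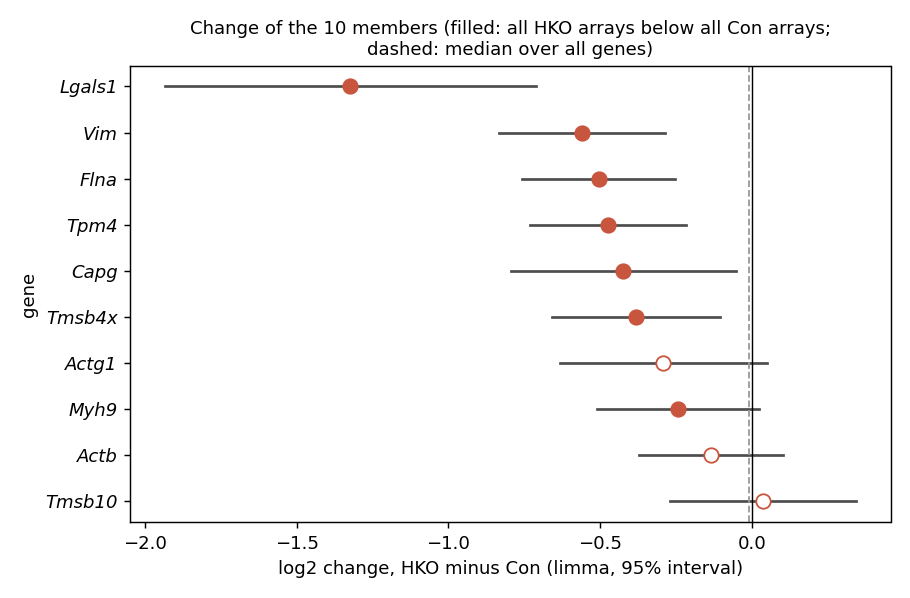
Log2 change of each gene (HKO minus Con, x axis) with the 95% interval from limma; filled points mark genes with all HKO arrays below all Con arrays. The intervals of 6 genes lie wholly below 0 before adjustment for the number of genes tested, and those of Actg1, Myh9, Actb and Tmsb10 include it.

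Vim encodes vimentin. Its log2 values were 8.02, 8.14 and 7.93 in Con and 7.36, 7.65 and 7.40 in HKO. The HKO arrays were all below the Con arrays, with a gap of 0.27 between the lowest Con and the highest HKO value. The log2 change was -0.56 ± 0.12 (SE; 95% interval -0.83 to -0.29), which is 1.47-fold lower (limma adjusted p = 0.142). A dimmer probe set of Vim, with means of 4.11 ± 0.11 (SD, n = 3) in Con and 3.84 ± 0.06 in HKO, had a log2 change of -0.27. Vim passed in limma when only genes with a mean log2 value of at least 5 were tested (adjusted p = 0.0350) and when the variance was allowed to follow the level (0.0285).

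The Vim promoter is shown because its gene is the namesake of the group and because 7 of the 10 genes lay lower together. The sequence is from RefSeq (GRCm38.p6, chr2:13574061-13574310, plus strand), the 250 bases before the start site, with TATAAA in capitals.
Vim: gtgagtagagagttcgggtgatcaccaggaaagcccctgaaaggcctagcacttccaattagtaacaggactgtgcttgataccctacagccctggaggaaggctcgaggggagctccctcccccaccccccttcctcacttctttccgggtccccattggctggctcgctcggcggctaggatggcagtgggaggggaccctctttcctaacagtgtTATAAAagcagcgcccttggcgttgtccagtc
The match begins 32 bases before the start. Among all 32851 promoters of that table, 12.4% hold TATAAA on either strand in the same window. Of the 10 genes, 8 are in the table, which lacks Actb and Lgals1, and of these 8 Myh9 also has a match. The 6-base E-box CAGGTG (or CACCTG on the other strand), a sequence that Snail family proteins bind, has no match in the Vim window.

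The cytoplasmic actins Actb and Actg1 encode the beta and gamma chains from which non-muscle actin filaments are built. Actb stood at 6.74, 6.80 and 6.89 in Con and at 6.61, 6.63 and 6.78 in HKO. Its groups overlapped, since the highest HKO array exceeded the lowest Con array. The log2 change of Actb was -0.13 ± 0.10 (SE; 95% interval -0.37 to 0.10; limma adjusted p = 0.663).

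Actg1 stood at 7.48, 7.45 and 7.44 in Con and at 6.88, 7.14 and 7.46 in HKO. The Con arrays were close together, and the HKO arrays spread from well below them to within their range. The log2 change was -0.29 ± 0.15 (SE; 95% interval -0.63 to 0.05; limma adjusted p = 0.494). It was -0.15 without HKO replicate 1, -0.44 without HKO replicate 3 and -0.12 with the mean of its probe sets. The actins are close copies of each other and have many processed pseudogenes, so probes for Actg1 can take signal from other actin transcripts.

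The array holds 6 probe sets annotated to Actg1 alone. Of these, 2 had the same value on every array to within 1e-06, one of them being the probe set used above, and another bright one had a log2 change of -0.37. The dim probe sets had log2 changes of -0.15, -0.09 and 0.46, the last with a Con mean of 3.76 ± 0.08 (SD, n = 3) and an HKO mean of 4.21 ± 0.34 (SD, n = 3). The direction for Actg1 therefore depends on the probe set, with 5 lower in HKO, the identical 2 among them, and 1 higher. The Con mean of the higher one lay below 3.94, the median over genes, and nothing in the file shows its values to exceed background. A probe set shared with the predicted gene Gm12739 had means of 4.20 in Con and 4.31 in HKO.

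**Figure D3:**
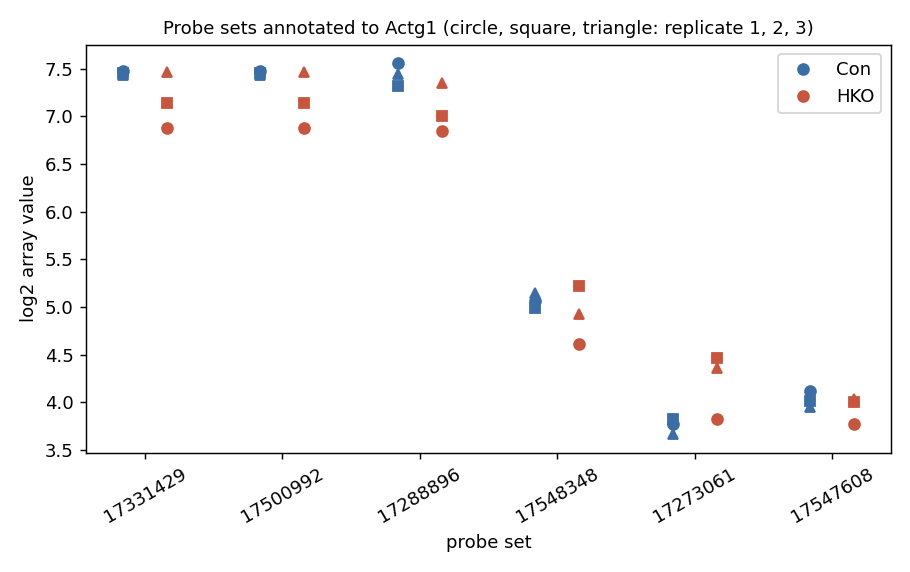
Log2 array values of the 6 probe sets annotated to Actg1 (x axis) in Con (blue) and HKO (red), 1 point per mouse. The 3 bright probe sets show the same pattern, with HKO replicate 1 lowest, and at probe set 17273061 HKO replicates 2 and 3 lie above every Con point.

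The CArG box is the site of serum response factor, a transcription factor that drives many actin cytoskeleton genes. Among the 8 genes in the promoter table, Actg1 has the only match to it. Actb and Lgals1 are not in that table and were not searched. The RefSeq sequence (GRCm38.p6, chr11:120348496-120348745, minus strand) is shown for that reason, with the match in capitals.
Actg1: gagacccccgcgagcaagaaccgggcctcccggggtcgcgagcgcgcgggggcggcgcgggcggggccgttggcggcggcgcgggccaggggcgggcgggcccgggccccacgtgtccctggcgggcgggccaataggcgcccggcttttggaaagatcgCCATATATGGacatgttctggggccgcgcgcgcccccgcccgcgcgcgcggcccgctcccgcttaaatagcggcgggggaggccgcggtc
The match begins 90 bases before the start, and 1.47% of all promoters hold a CArG box in this window.

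The thymosins Tmsb4x and Tmsb10 encode small peptides that bind actin monomers and keep them from joining filaments. They differed in their values. Tmsb4x stood at 6.76, 6.76 and 6.55 in Con and at 6.19, 6.48 and 6.25 in HKO. The groups did not overlap, though the highest HKO array came within 0.07 of the lowest Con array. The log2 change of Tmsb4x was -0.38 ± 0.12 (SE; 95% interval -0.66 to -0.11; limma adjusted p = 0.289).

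Tmsb10 stood at 4.002, 4.44 and 4.33 in Con and at 4.30, 4.37 and 4.20 in HKO. All HKO arrays lay within the Con range. The mean of Tmsb10 over all arrays, 4.27, was not far above 3.94, the median over genes, and RMA compresses changes of dim genes. The log2 change of Tmsb10 was 0.04 ± 0.13 (SE; 95% interval -0.27 to 0.34; limma adjusted p = 0.944), and it was -0.091 without Con replicate 1 and -0.00391 without HKO replicate 2. Whether the changes of the 2 thymosins differ from each other was not tested.

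Myh9 encodes the heavy chain of non-muscle myosin IIA, the motor that contracts actin bundles. Its values were 8.22, 7.97 and 7.92 in Con and 7.87, 7.71 and 7.79 in HKO. The groups lay apart by 0.04, less than the spread within either group. Myh9 had a log2 change of -0.24 ± 0.12 (SE; 95% interval -0.51 to 0.02; limma adjusted p = 0.466), and one of -0.15 without Con replicate 1.

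Flna encodes filamin A, which crosslinks actin filaments and ties them to membrane proteins. Its values were 6.04, 6.21 and 6.04 in Con and 5.51, 5.72 and 5.55 in HKO. The gap between the groups, 0.32, was larger than the range within either group. Flna had a log2 change of -0.50 ± 0.11 (SE; 95% interval -0.76 to -0.25), which is 1.42-fold lower. The limma adjusted p was 0.148 over all genes and 0.0345 when only genes with a mean of at least 5 were tested.

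Tpm4 encodes a tropomyosin, a coiled protein that lies along actin filaments and sets which partners can bind. Its values were 7.67, 7.50 and 7.45 in Con and 6.95, 7.09 and 7.17 in HKO. The gap of 0.29 again exceeded the range within each group. Tpm4 had a log2 change of -0.47 ± 0.11 (SE; 95% interval -0.73 to -0.22; limma adjusted p = 0.177), and a second probe set gave -0.49. Among genes with a mean of at least 5 the adjusted p of Tpm4 was 0.0431 in limma, and with a variance trend 0.0461.

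Capg encodes a capping protein of the gelsolin family that is abundant in macrophages. Its values were 2.79, 3.27 and 2.66 in Con and 2.48, 2.40 and 2.57 in HKO. All are below 3.94, the median over genes, and nothing in the file shows them to exceed background, so no fold is given. The difference in log2 values was -0.42 ± 0.16 (SE; limma adjusted p = 0.368), and the groups lay 0.09 apart. It was -0.24 without Con replicate 2, the highest array.

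Among the 8 genes in the promoter table, Capg and Tmsb10 are those with a CAGGTG or CACCTG E-box in a promoter window. Tmsb10 has 3 windows, 1 of them with a match, so 2 of the 10 windows of the 8 genes hold the E-box, where 17.2% of all promoters do. Capg is shown because it has 2 matches (RefSeq, GRCm38.p6, chr6:72549397-72549646, plus strand; matches in capitals), which begin 243 and 62 bases before the start.
Capg: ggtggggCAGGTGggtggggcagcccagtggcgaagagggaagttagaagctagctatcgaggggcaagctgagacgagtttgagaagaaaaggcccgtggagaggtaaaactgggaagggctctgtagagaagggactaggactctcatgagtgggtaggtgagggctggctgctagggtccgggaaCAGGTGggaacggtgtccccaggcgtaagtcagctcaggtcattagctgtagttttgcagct
A match is a sequence of letters, and binding was not measured.

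Lgals1 encodes galectin-1, a secreted lectin of mesenchymal and immune cells that binds galactose-bearing glycans; it is grouped here with vimentin as a mesenchymal gene and is no actin binding protein. Its values were 8.44, 8.32 and 8.39 in Con and 6.37, 7.25 and 7.56 in HKO. The Con arrays differed by little, while the HKO arrays spread over 1.19 log2 units and still lay 0.75 below the lowest Con array. The log2 change was -1.32 ± 0.27 (SE; 95% interval -1.93 to -0.71), which is 2.50-fold lower (limma adjusted p = 0.126). Ranked from the most negative, it was change number 19 of 22180. Without HKO replicate 1, the lowest array, the change was -0.98 (limma adjusted p = 0.0897). Lgals1 passed when only genes with a mean of at least 5 were tested (adjusted p = 0.0418) and with a variance trend (0.0301).

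The 7 genes whose groups lay apart each gave an exact two-sided permutation p of 0.1, the smallest that 3 against 3 arrays allow; Actb gave 0.2, Actg1 0.3 and Tmsb10 0.9. Within groups the arrays did not rank evenly over the 10 genes. HKO replicate 1 was the lowest HKO array for 7 of the 10, where it was lowest for 31.7% of all genes, and Con replicate 3 was the lowest Con array for 7 of the 10, against 33.7% of all genes. The mean log2 value over the 10 genes was 6.62, 6.69 and 6.56 in Con and 6.05, 6.24 and 6.27 in HKO. With any 1 array left out, 7 to 9 of the 10 genes lay apart and below, where 14.5% to 16.9% of all genes did. Genes that lie apart on all 6 arrays stay apart on fewer. The count could thus not fall below 7, and it is no test of the result.

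The 5 other genes most like the group were Heg1, Ndufb3, Mcam, Hadh and Parp3. Likeness was the Pearson correlation over the 6 arrays with the mean of the 10 genes, each scaled to its own mean and SD, among the 11081 other genes with a mean above the median over genes. The correlations lay between 0.991 and 0.998, and 402 of those genes exceeded 0.9. They include the difference between the groups and rest on 6 arrays, so they are a description. Heg1, an endothelial membrane protein, had a log2 change of -0.46, or -0.21 with the mean of its probe sets, and Mcam, an adhesion molecule of endothelial and perivascular cells, one of -0.64. Ndufb3, a subunit of respiratory complex I, stood at -0.29, the fatty acid oxidation enzyme Hadh at -0.12 and Parp3, an ADP-ribosyltransferase, at -0.49. None of the 5 passed in limma over all genes (adjusted p from 0.136 to 0.655).

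In each list of other actin system genes, lower means in HKO outnumbered higher ones, where 51.8% of all genes had lower means. List medians ran from -0.30 to -0.05, beside -0.01 over all genes. In limma 1 of these genes passed, where 0.113% of all genes passed as lower. Limk1, a kinase that inactivates cofilin and thereby slows filament turnover, fell. It stood at 5.75, 5.67 and 5.78 in Con and at 5.01, 4.67 and 4.81 in HKO, with no overlap. The log2 change of Limk1 was -0.91 ± 0.12 (SE; limma adjusted p = 0.0344). Limk1 no longer passed when Con replicate 1 (adjusted p = 0.132), 2 (0.157) or 3 (0.0883) or HKO replicate 2 (0.0922) or 3 (0.122) was left out, although the change stayed at -0.83 or lower.

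Of 7 other actins and tropomyosins, 0 passed in limma and 6 had lower means, against 51.8% of all genes. At an unadjusted p under 0.05, 3 were lower, against 6.56% of all genes, and the median was -0.30. Tpm1, a tropomyosin of high and low molecular weight forms, was at -0.64 ± 0.11 (SE; limma adjusted p = 0.0811; 0.0138 among genes with a mean of at least 5). Acta2, the smooth muscle actin of myofibroblasts, was at -0.74 ± 0.24 (0.294). Its Con arrays ran from 5.96 to 6.53 and its HKO arrays from 5.02 to 5.95, which do not overlap by a narrow margin.

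Of 14 measured genes of filament nucleation, chiefly the Arp2/3 complex and formins, 0 passed in limma. At an unadjusted p under 0.05, 2 were lower, against 6.56% of all genes. Lower means were found for 9, against 51.8% of all genes (median -0.11). Arpc1a, an Arp2/3 subunit, was at -0.32 and the formin Diaph1 at -0.27. Of 18 genes of monomer binding, severing and capping, 0 passed, 2 were lower at an unadjusted p under 0.05 and 14 had lower means (median -0.14). Among these Coro1c, a coronin, was at -0.42 ± 0.09 (SE; limma adjusted p = 0.154; 0.0279 among genes with a mean of at least 5), but at -0.0049 (0.992) with the mean of its probe sets. The capping subunit Capza1 was at -0.27, and at -0.15 with the mean of its probe sets.

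Crosslinking and membrane linkage genes numbered 21, of which 0 passed in limma. Of these, 6 were lower at an unadjusted p under 0.05, against 6.56% of all genes, and 15 had lower means, against 51.8%. The median was -0.22, and 11 lay apart and below, against 10.1% of all genes. Iqgap1, a scaffold at the cell cortex, was at -0.47 ± 0.13 (SE; limma adjusted p = 0.245) and the transgelin Tagln2 at -0.37 ± 0.12 (0.315). Of 11 genes of other myosin chains and a myosin light chain kinase, 0 passed and 7 had lower means (median -0.05). At an unadjusted p under 0.05, 4 were lower and 1 higher, against 6.56% and 5.31% of all genes. Myh11, the smooth muscle heavy chain, was at -0.58 ± 0.10 (0.0835), and Myo1f, a myosin of blood cells, at -0.56 ± 0.15 (0.237).

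Among 13 other intermediate filament genes and their linkers 0 passed in limma. Of these, 4 were lower at an unadjusted p under 0.05, against 6.56% of all genes, and 9 had lower means, against 51.8% (median -0.20). Krt8, the type II keratin of hepatocytes, stood at 8.22, 8.26 and 8.26 in Con and at 7.75, 7.68 and 7.82 in HKO, which do not overlap. Its log2 change was -0.49 ± 0.10 (SE; limma adjusted p = 0.115 over all genes, 0.0195 among genes with a mean of at least 5). Krt18, the other hepatocyte keratin named above, had a smaller log2 change of -0.20 ± 0.10 (SE, limma adjusted p = 0.490), also without overlap. Nes, nestin, had a mean of 3.77 in Con and 3.17 in HKO, both below the median over genes. Of 7 genes of other galectins and a galectin binding protein, 0 passed, 1 was lower at an unadjusted p under 0.05 and 5 had lower means (median -0.15). Lgals3, galectin-3 of macrophages, was at -0.57 ± 0.11 (0.125) with no overlap, and Lgals2 at -0.26 (0.581; -0.45 without Con replicate 1 and -0.15 without Con replicate 3) with overlap. The Lgals2 means, 2.84 in Con and 2.58 in HKO, lay below the median over genes.

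**Figure D4:**
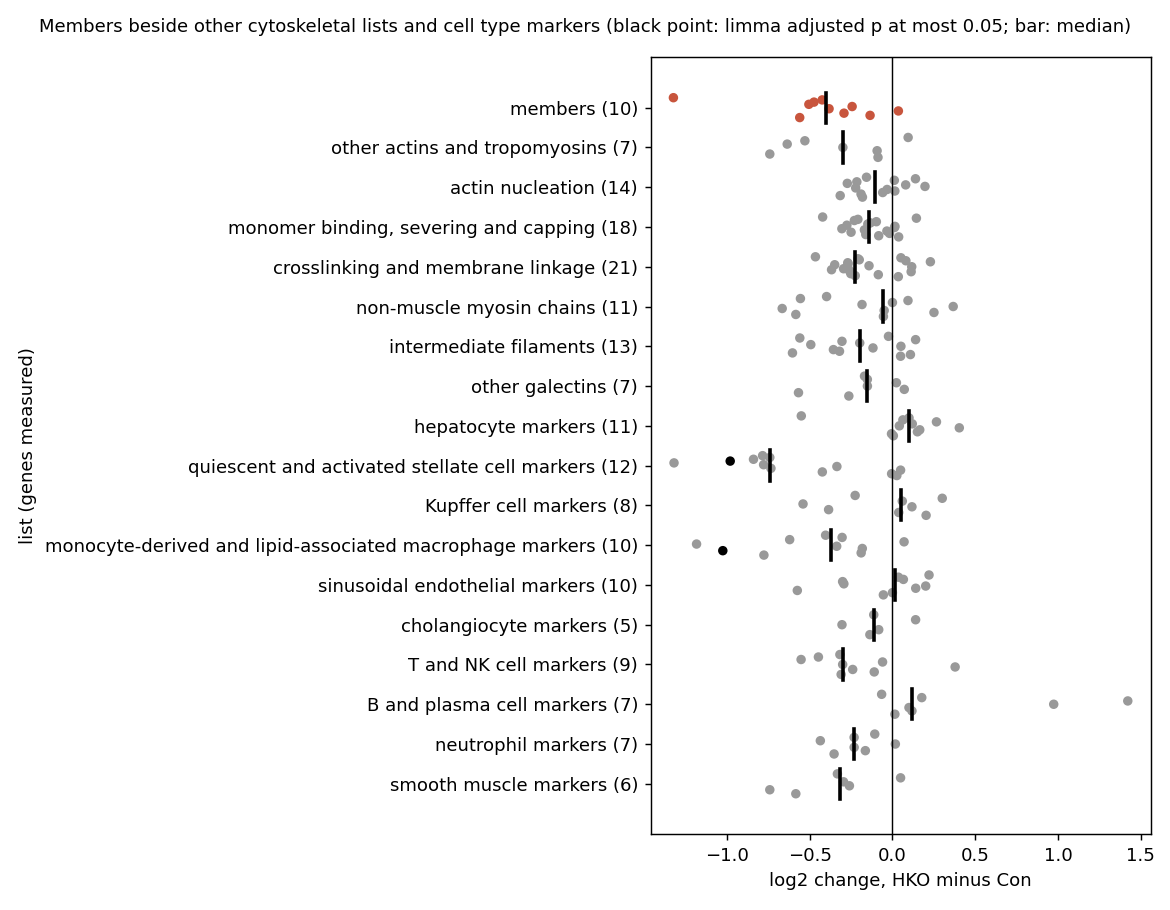
Log2 change (HKO minus Con, x axis) of each measured gene in the 10 described here (red) and in other cytoskeletal and cell type lists (grey; black where limma's adjusted p is at most 0.05), with the median of each list as a bar. The median is -0.40 for the 10 genes, -0.74 for stellate cell markers and -0.37 for monocyte-derived and lipid-associated macrophage markers, and near 0 for Kupffer and sinusoidal endothelial markers.

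Markers of some cell types that express these genes were lower as well. Of 12 stellate cell markers, 10 had lower means, against 51.8% of all genes. At an unadjusted p under 0.05 in limma 8 of the 12 were lower, against 6.56% of all genes. Col1a2, a type I collagen chain, fell (log2 change -0.98 ± 0.13, limma adjusted p = 0.0415; 0.0758 to 0.176 with any 1 array left out). With the mean of its probe sets Col1a2 was at -0.58 (limma adjusted p = 0.0975). The mean log2 value over that list ran from 6.23 to 6.54 in Con and from 5.71 to 5.90 in HKO, and the median change was -0.74. Lrat, Reln and Des, also stellate cell genes, had log2 changes of 0.03, -0.0047 and 0.05. The low values were thus those of the collagens, Acta2, Timp1, Lum, Dcn, Pdgfrb and Rgs5. Among these, Rgs5 overlapped between the groups, and the Timp1 means lay below the median over genes in both groups. The part of the stellate cell genes in the lower values of the 10 genes was not tested.

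Monocyte-derived and lipid-associated macrophages had 10 measured markers. Of these 9 had lower means, against 51.8% of all genes, and 5 were lower at an unadjusted p under 0.05 in limma, against 6.56%. Itgax, an integrin chain of recruited macrophages and dendritic cells, fell. Its mean went from 4.44 in Con to 3.42 in HKO, which is below the median over genes (limma adjusted p = 0.0280; 0.0621 to 0.149 with any 1 array left out). The mean over that list ran from 5.07 to 5.29 in Con and from 4.53 to 4.86 in HKO. Smooth muscle markers, which share Acta2, Myh11, Tagln, Cnn1 and Des with lists above, had 5 of 6 lower means, 3 at an unadjusted p under 0.05, and 0 passed in limma; their mean ran from 4.24 to 4.52 in Con and from 3.85 to 4.13 in HKO. The part of these cells in the lower values was not tested either.

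Kupffer and endothelial cells also express vimentin and actin genes, and differences between marker lists were not tested. Kupffer cell markers had 3 of 8 lower means, where 51.8% of all genes had a lower mean. Their list means were 6.50 to 6.88 in Con and 6.53 to 6.78 in HKO. Cd5l was at -0.39 (-0.59 without Con replicate 3) and Marco at -0.54, and both overlapped between groups. Sinusoidal endothelial markers had 4 of 10 lower means, with list means of 7.51 to 7.54 in Con and 7.44 to 7.49 in HKO. Among them Pecam1, an endothelial junction protein, was at -0.29 ± 0.09 (SE; limma adjusted p = 0.293) without overlap, and Lyve1 at -0.57 ± 0.20 (0.333) with overlap. No marker of these 2 lists passed in limma. At an unadjusted p under 0.05, 3 of the 10 endothelial and 0 of the 8 Kupffer markers were lower, against 6.56% of all genes. Besides Pecam1 and Lyve1, the endothelial marker lower at that level was Cdh5, at -0.30 ± 0.11 (SE, limma adjusted p = 0.337) without overlap. Of the 10 endothelial markers, 6 had higher means.

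T and NK cell markers had 8 of 9 lower means, against 51.8% of all genes, and a median change of -0.30. Their list means were 3.15 to 3.77 in Con and 3.31 to 3.37 in HKO. Neutrophil markers had 6 of 7 lower means and a median of -0.23. The neutrophil list means were 3.03 to 3.31 in Con and 2.91 to 3.01 in HKO. Both lists lie below the median over genes on average. B and plasma cell markers had 1 of 7 lower means and cholangiocyte markers 4 of 5. Hepatocyte markers had 2 of 11 lower means, with list means of 9.92 to 10.07 in Con and 9.90 to 10.20 in HKO. In these 5 lists 0 genes passed in limma. At an unadjusted p under 0.05, 1 T and NK cell, 2 neutrophil and 1 hepatocyte marker were lower, against 6.56% of all genes. At that level 2 B and plasma cell and 2 hepatocyte markers were higher, against 5.31% of all genes, and 0 cholangiocyte markers differed.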

How the data were processed

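Total RNA (400 ng per array) of 6 livers was labelled and hybridised on Affymetrix whole-transcript arrays, per the labels' protocols. Per the submitters' processing notes, the authors used RMA with R 3.3.0, and the deposited values are on a log2 scale. RMA corrects background, equalises the arrays' distributions and compresses changes of dim genes. The sources used here name no genome build or further filter. Arrays have no read depth; their number limits precision.

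Of 41345 probe sets, 23521 had 1 annotated gene, 1814 several and 16010 none; 23328 were found by Entrez identifier in RefSeq (GRCm38.p6), with 0 symbols changed. Each gene was read at its probe set with the highest mean (22180 genes, no filter on low values). The HKO and Con groups were compared in limma 3.58.1 (R 4.3.3), two-sided, group as the only term, Benjamini-Hochberg adjusted over all genes, threshold 0.05. The p-values set the difference between the groups against the spread between these mice, with the variance shared between genes. Lists are described by counts and medians, with no test; 1 list is not reported here. The fit was tested on simulated data with planted changes larger than those of most genes described here, so its power at their sizes was not tested. Figures used matplotlib 3.10.9.

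The 10 genes and all lists were chosen with earlier results of these data known. Named genes were the 10, Snai2, up to 4 genes past the threshold per pathway list (for cell types all such genes), otherwise the 2 with the lowest p, and the 5 most alike; of cell type lists, not every gene so picked is printed. Genes outside this rule were chosen after their values were seen (Alb, Ttr, Cyp2e1, Krt18, Lrat, Reln, Des, Timp1, Lum, Dcn, Pdgfrb, Rgs5 and Cdh5). Alternatives covered normalization, centring, filters, probe sets, the variance model, array weights, a replicate block, the threshold and each array left out. Protein sequences were not analysed here.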

Additional observations from a re-analysis of the deposited data

How the results depend on the processing

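The count of genes past the threshold, 45 in limma, was 138 among genes with a mean above the median over genes, 242 among those with a mean of at least 5, 215 with a variance trend, 115 at an adjusted p of 0.10, and 4 when all probe sets were tested singly; it ran from 4 to 32 with 1 array left out. Of the 10 genes, 0 passed in all alternatives but 2: 4 passed among genes with a mean of at least 5 (Vim, Flna, Tpm4 and Lgals1, with fewer genes tested) and 3 with a variance trend (Vim, Tpm4 and Lgals1). Their median change kept its direction and ran from -0.48 to -0.32 with 1 array left out. Tmsb10 changed sign, at -0.091 without Con replicate 1 and -0.00391 without HKO replicate 2, and ran up to 0.13 without Con replicate 2; the cause was not tested. Actg1 was at 0.46 at probe set 17273061, an alternative chosen after seeing the data, as were the counts of genes lying apart and of unadjusted p. Apart from that probe set of Actg1, the 9 genes other than Tmsb10 kept their direction under the alternatives run. Same-numbered Con and HKO arrays deviated together little (correlations of 0.03, 0.02 and 0.02), so the numbers are not taken as pairs. With the replicate block, 3 genes passed and 0 of the 10. Limk1, Snai2, Itgax and Col1a2, which passed over all genes, did not pass with the block (adjusted p = 0.1004, 0.0540, 0.0514 and 0.0789) or with all probe sets tested singly (0.112, 0.0910, 0.0931 and 0.130), and Col1a2 did not with the mean of its probe sets (-0.58, 0.0975). Capg was left out by both filters and Tmsb10 by the stricter one. These values hold no measure of background, which limits what can be read from dim genes such as Capg, Nes, Lgals2 and Timp1.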
